A study of Mus musculus with 37 samples.

Results

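The Erysipelotrichales are an order of anaerobic Firmicutes of the gut. Here they were taken as every sequence variant assigned in the deposited taxonomy to the family Erysipelotrichaceae (141 variants) or Erysipelatoclostridiaceae (17 variants), which gave 158 of the 6100 variants in the table. These 158 variants held 501882 reads, 3.11% of the 16138707 bacterial reads kept over all 37 libraries. They fell under 11 genus names or unnamed ranks, and 30 of them had 100 reads or more. A sequence variant is 1 distinct amplicon sequence. Variants are numbered here within a genus by their total reads.

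The libraries were made from stool DNA of adolescent C57Bl/6 mice, by amplifying the V3–V4 stretch of bacterial 16S rRNA genes. The prenatal alcohol exposure (PAE) groups, 10 males and 9 females, were born to dams that drank a 10% ethanol solution from the start of pregnancy for 10 days and then water. The control groups, 11 males and 7 females, were born to dams given water throughout. Which mice shared a dam, litter or cage was not known here, so the p-values below measure the spread between libraries.

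Members of this order are common in the rodent gut, and several of their genera were first cultured from mice. Dubosiella and Faecalibaculum are fermenting genera of the mouse large intestine, Turicibacter is known for acting on bile acids and lipids, and Coprobacillus, the [Clostridium] innocuum group and Erysipelatoclostridium hold species that are also common in human stool. A 16S rRNA read share compares taxa within a library only. It does not count bacterial cells, and a share can fall because other taxa rose.

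Depth ranged from 102672 to 1813237 reads per library (median 293111). The families that usually dominate mouse stool (Muribaculaceae, Lachnospiraceae, Rikenellaceae, Oscillospiraceae and Prevotellaceae) made up 41.5% to 79.9% of the reads in every library, and listed skin and reagent genera at most 0.0636%. At 102655 reads per library, 9 libraries held 193 to 289 observed variants and the other 28 held 369 to 668. These 9 libraries were control females 3 and 10, PAE males 20 to 24 and PAE females 27 and 28, and they were also the 9 libraries with reads of Robinsoniella, a Lachnospiraceae genus. The library numbers in the labels form runs of controls (1 to 10 and 30 to 37) and of PAE mice (11 to 29), and no run holds both exposures. The labels do not call these runs batches, and exposure and run cannot be told apart. Where PAE libraries 11 to 19 and 20 to 29 are taken apart below, no label gives that division: it was chosen with earlier results of these data known, and all of PAE males 20 to 24 lie in the second part.

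The order as a whole made up 3.47% ± 3.45 of reads (SD, n = 11) in control males and 2.999% ± 4.45 (n = 10) in PAE males. In females it made up 4.36% ± 3.92 (n = 7) in controls and 2.60% ± 3.81 (n = 9) after PAE. The SD was close to the mean in both control groups and above it in both PAE groups. Dubosiella was the leading genus of the order in 17 libraries, unnamed Erysipelotrichaceae in 9, Coprobacillus in 6, the innocuum group in 3, and Faecalibaculum and Turicibacter in 1 each. All 5 PAE males numbered 20 to 24 were led by Coprobacillus, and no control library was.

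**Figure D1:**
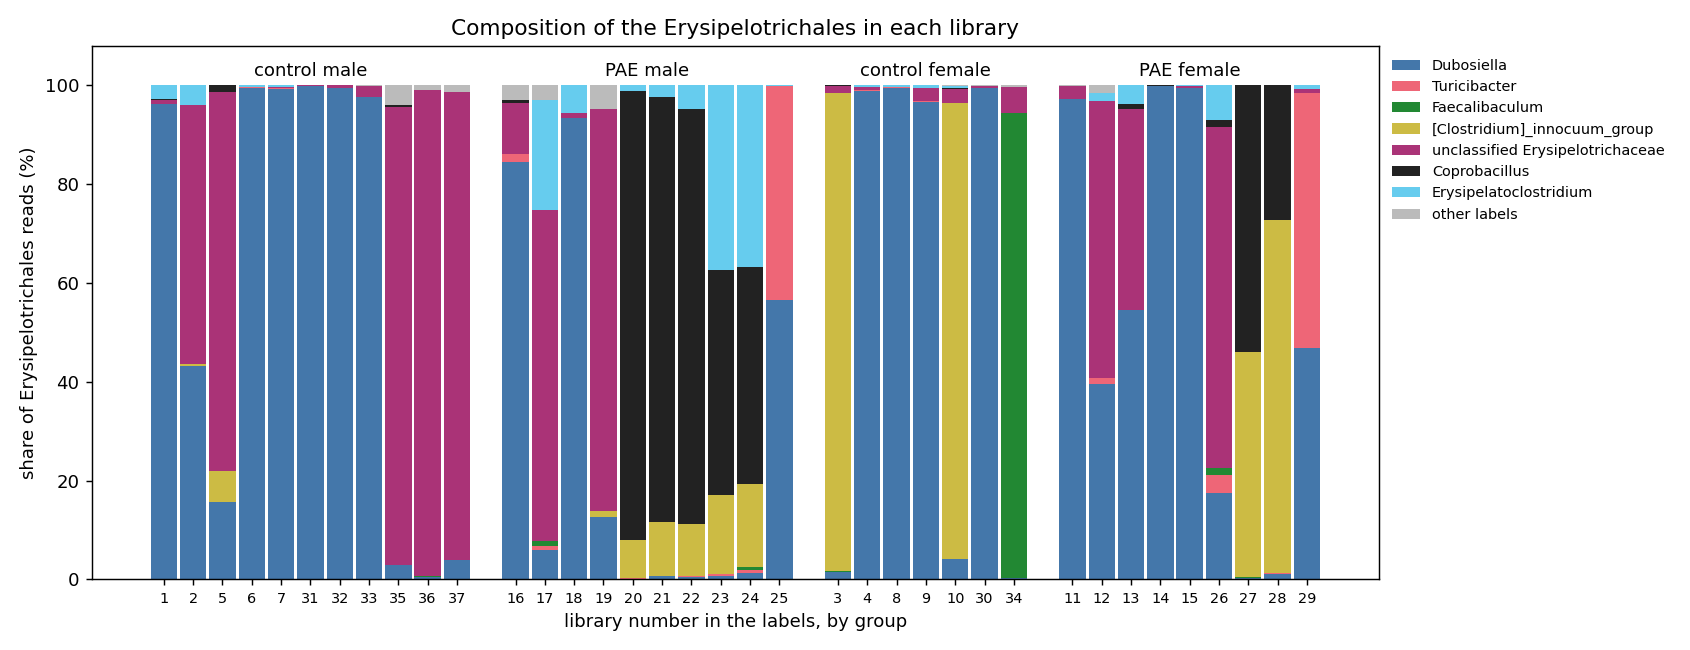
Share of Erysipelotrichales reads (%) taken by each genus in each of the 37 libraries, 1 bar per library, by group and library number. Dubosiella led the order in 10 of the 18 control libraries, Coprobacillus led in PAE males 20 to 24, and Faecalibaculum held 94.1% of the bar of control female 34.

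The first question was whether any genus of the order differed between PAE and control mice of the same sex. Of the 11 genera or ranks, 7 had at least 5 reads in at least 7 libraries and were tested among 112 genera with edgeR's quasi-likelihood test and Benjamini-Hochberg adjustment over all 112. In males, 3 of the 7 passed at an adjusted p under 0.05, all higher after PAE, against 11.6% of all genera tested in either direction and 9.82% in the higher direction (1.79% were lower). They were Coprobacillus, Turicibacter and the innocuum group. In females none of the 7 passed by edgeR, against 2.68% of all genera (0.893% higher and 1.79% lower); 2 of the 7 had an unadjusted p under 0.05, and DESeq2 passed 1, Coprobacillus. The median log2 change of the 7 genera was 3.83 in males, beside -0.28 over all genera tested, and -0.81 in females, beside -0.13. None of the 7 passed the test of whether the PAE difference itself differed between the sexes by edgeR (3.57% of all genera did); 2 had an unadjusted p under 0.05, and DESeq2 passed 1, the innocuum group.

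Among single variants, 14 of the 158 had enough reads to be tested, among 553 variants in all. In males 4 of the 14 passed, 3 higher and 1 lower after PAE, against 12.1% of all variants in either direction (4.16% higher and 7.96% lower). In females 1 of the 14 passed, and it was lower, against 12.3% in either direction (3.98% higher and 8.32% lower). None of the 14 passed the test of a sex difference in the PAE effect, as was true of all 553 variants (0% of them) by edgeR, although 2 of the 14 and 68 of the 553 had an unadjusted p under 0.05. Of the 2 families, Erysipelatoclostridiaceae passed in males, against 5% of 60 families tested in either direction and 3.33% in the higher direction (1.67% were lower). In females neither family passed, against 1.67% of all families, which were lower.

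**Figure D2:**
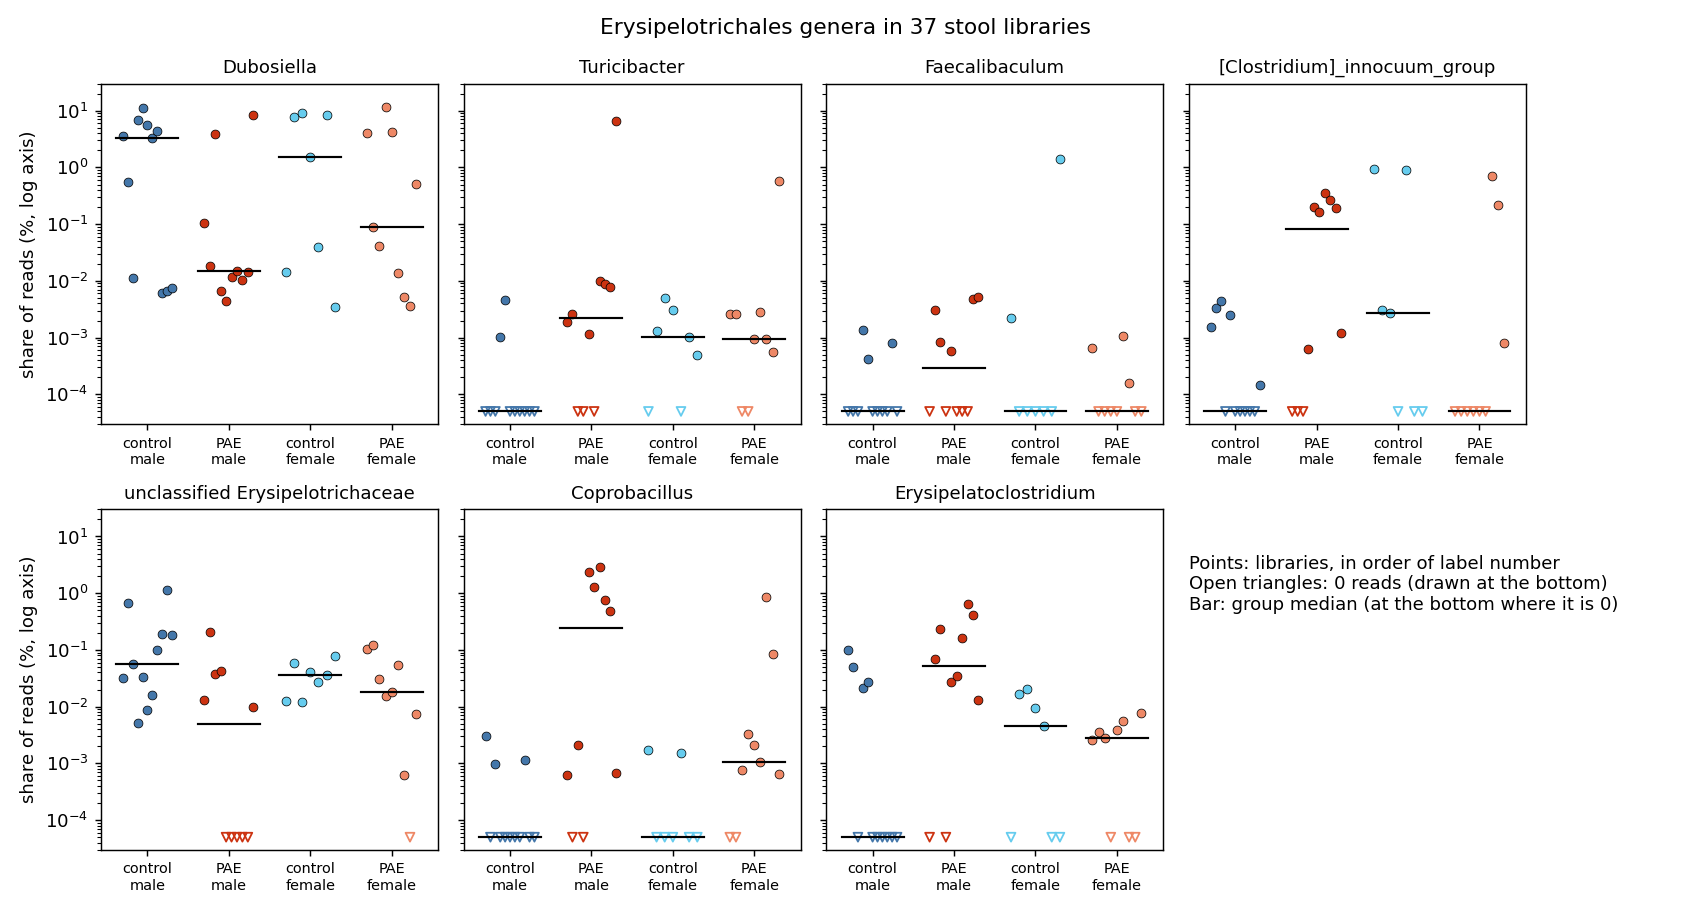
Share of reads (%, log axis) of 7 Erysipelotrichales genera or ranks in each library, by group, with the group median as a bar and libraries with 0 reads as open triangles at the bottom. Dubosiella fell into a high and a low set of libraries within every group, and Coprobacillus reached 0.490% to 2.87% in 5 PAE males.

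Dubosiella held 71.0% of the order's reads, with 356216 reads in 96 variants. It was either abundant or nearly missing. In 17 libraries it had at least 1305 reads and 0.519% to 11.8% of all reads, and in the other 20 it had at most 171 reads and 0.105%. The abundant libraries were 7 of 11 control males, 2 of 10 PAE males, 4 of 7 control females and 4 of 9 PAE females.

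In control males the lowest, median and highest shares of Dubosiella were 0.00608%, 3.36% and 10.97%, and in PAE males 0.00439%, 0.0147% and 8.51%. Of the 10 PAE males, 8 lay below the control median, but PAE males 18 and 25 lay within the upper range of the controls. The means were 3.22% ± 3.60 and 1.26% ± 2.82, 2.56-fold higher in control males, and the fitted log2 change was -1.50 (SE 1.44, 95% interval -4.38 to 1.37, adjusted p = 0.53). Without PAE male 25 the PAE mean was 0.454%. In control females the shares were 0.00347%, 1.505% and 9.21%, and in PAE females 0.00359%, 0.0879% and 11.8%, so the female groups overlapped over nearly their whole range. The female means were 3.85% ± 4.37 and 2.29% ± 3.95, with a log2 change of -1.18 (SE 1.60, 95% interval -4.39 to 2.03, adjusted p = 0.96), and without PAE female 14 the PAE mean was 1.10%. The genus therefore did not pass the test in either sex, and the intervals include both large decreases and increases.

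All 9 of the libraries with the fewest observed variants lay in the low Dubosiella set, with at most 76 reads and 0.0390%. These 9 hold 5 of the 10 PAE males and none of the 11 control males. Without the 9 libraries the log2 change in males was -0.29 (adjusted p = 0.94).

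The 17 libraries with abundant Dubosiella carried different variants. In 13 of them variant 2 led the genus, with 29.1% to 39.8% of its reads, followed by variant 3 (17.9% to 31.5%), variant 4 (15.3% to 23.7%) and variant 5 (5.45% to 8.97%). In the other 4, control males 31, 32 and 33 and control female 30, variant 1 alone held 99.7% to 99.9% of the genus, and variants 3, 5, 6 and 7 had no reads. The 2 compositions were nearly exclusive. PAE female 29 held both, with 25.998% of its Dubosiella reads in variant 1.

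The 13 libraries led by variant 2 themselves divided by which minor variant they carried. In 8 of them the reads of variant 6 were 0.166 to 0.235 of those of variant 2, and the reads of variant 3 were 0.602 to 0.687 of variant 2. In the other 5 the place of variant 6 was taken by variant 7, at 0.164 to 0.203 of variant 2, and variant 3 was relatively more abundant, at 0.780 to 0.841. Variant 4 went the other way, with 0.539 to 0.651 of variant 2 in the first set and 0.404 to 0.446 in the second. The 5 libraries of the variant 7 set were control female 4, PAE females 11, 14 and 15 and PAE male 18. The 8 of the variant 6 set were control males 1, 2, 6 and 7, control females 8 and 9, PAE male 25 and PAE female 29. Both sets held control and PAE mice and both sexes, but the variant 7 set held no control male. Among the 13, the PAE libraries numbered up to 18 were all in the variant 7 set and the later ones in the variant 6 set. All the controls except control female 4 were in the variant 6 set. Whether the division followed exposure or library number was not tested. The narrow ranges of the variant ratios were seen across libraries whose Dubosiella reads ran from 1305 to 63028.

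**Figure D3:**
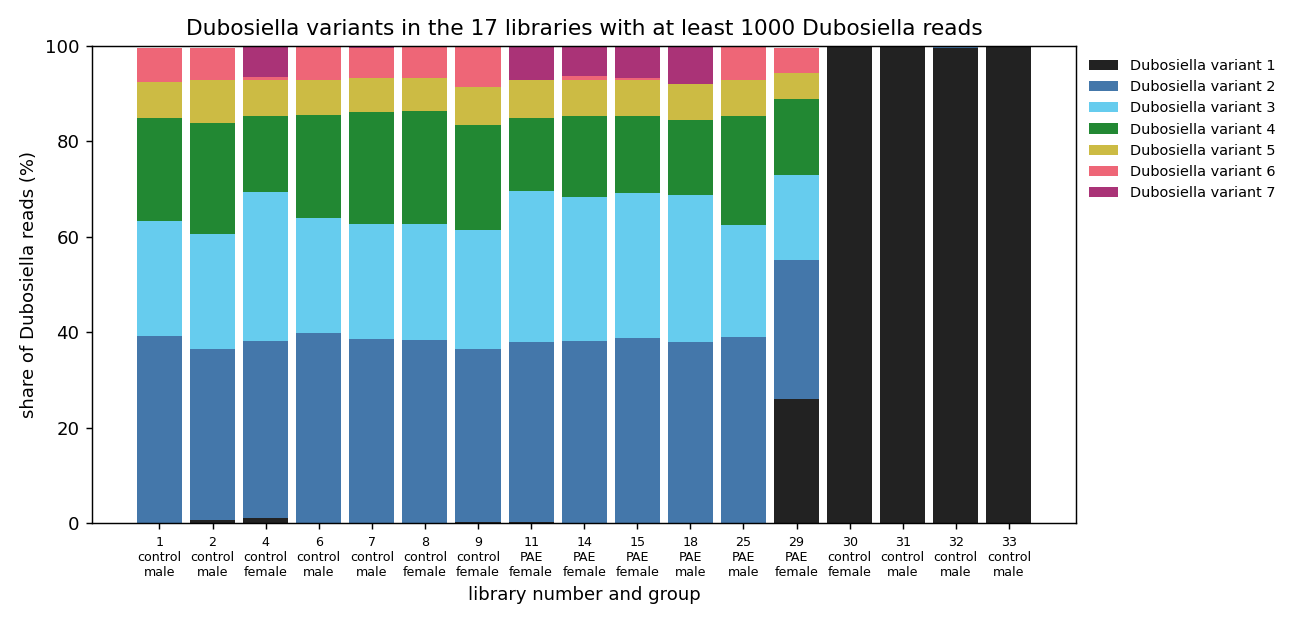
Share of Dubosiella reads (%) held by variants 1 to 7 in the 17 libraries with at least 1000 Dubosiella reads, 1 bar per library in order of library number. Variant 1 held at least 99.7% in controls 30 to 33, and variants 2 to 5 with either variant 6 or variant 7 made up nearly all of the genus in 12 of the other 13 libraries; PAE female 29 held 25.998% of variant 1.

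Dubosiella variant 1 was the variant that passed as lower after PAE in both sexes. Its share was 1.22% ± 2.15 in control males and 0.00372% ± 0.00217 in PAE males, with a log2 change of -8.04 (SE 2.03, edgeR adjusted p = 0.00521). In females it was 1.23% ± 3.20 in controls and 0.0187% ± 0.0436 after PAE, with a log2 change of -6.41 (SE 2.02, edgeR adjusted p = 0.0294). Only 4 of 11 control males lay above every PAE male, and only 1 of 7 control females lay above every PAE female. The control means came from controls 30 to 33, with 12036 to 58661 reads each, whereas the 5 control males numbered 1 to 10 held 47 reads in all. Over all libraries, 31 held under 100 reads of variant 1, and 28 of these held 6 to 21 reads. Every PAE male was among the 31, with 0 to 18 reads, so the PAE male mean rests on such low counts. With counts of 25 or fewer set to 0, variant 1 was not among the variants that passed in either sex. Against the controls numbered 1 to 10 alone the change was 0.26 in males (adjusted p = 0.97) and -0.03 in females (adjusted p = 1.0), so the call needs the controls numbered 30 to 37. Of these, controls 34 to 37 held only 11 to 21 reads each, and controls 30 to 33 held the rest. With limma on centred log-ratios the changes were -2.04 and -1.57 (adjusted p = 0.45 and 0.82). Without control female 30 alone the female change was 0.23 (adjusted p = 1), and without control female 34, PAE female 27 or PAE female 28 the female adjusted p was 0.0504 to 0.0513.

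None of Dubosiella variants 2 to 7 passed in either sex over all libraries. Their log2 changes in males ran from -1.002 for variant 6 to 3.87 for variant 7. Without PAE male 25, the only PAE male with reads of variant 6, the change of variant 6 was -11.90 (edgeR adjusted p = 0.00952). In females the changes ran from -2.78 for variant 6 to 1.204 for variant 7.

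Beside variants 1 to 7, Dubosiella had 89 variants of fewer than 100 reads each, 88 of them in exactly 1 library. They were seen in all 17 libraries with abundant Dubosiella (1 to 12 variants each, median 4) and in 2 of the 20 others. In the 17 libraries they made up 1.27 of every 1000 Dubosiella reads. Of the 96 Dubosiella variants, 56 carried the species label uncultured_Erysipelotrichales and together held 194 reads. The number of variants in the genus was thus mostly made of such rare ones, and over the whole order the 128 variants under 100 reads held 0.174% of the reads.

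Coprobacillus, of the family Erysipelatoclostridiaceae, split sharply between libraries. It held 34071 reads, 99.8% of them in variant 1, which carries the species label Coprobacillus_cateniformis. PAE males 20 to 24 held 2.35%, 1.29%, 2.87%, 0.770% and 0.490%, PAE female 27 held 0.845%, and PAE female 28 held 0.0841%. Each of the other 30 libraries, all 18 controls among them, held at most 0.00335%. The 5 PAE males therefore lay above every control male, while the other 5 PAE males lay within or close to the control range.

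In control males the lowest, median and highest Coprobacillus shares were 0%, 0% and 0.00305%, and in PAE males 0%, 0.246% and 2.87%. The means were 0.000470% ± 0.000956 and 0.777% ± 1.06, 1654-fold higher after PAE, with a fitted log2 change of 12.09 (SE 2.45, edgeR adjusted p = 0.000703). The control mean rests on 6, 5 and 6 reads in control males 1, 5 and 35, with 0 in the others, so the fold is imprecise. Leaving out each of the 37 libraries in turn kept the genus past the threshold, with changes of 11.23 to 12.60. In control females the shares were 0%, 0% and 0.00169%, and in PAE females 0%, 0.00105% and 0.845%. The female means were 0.000461% ± 0.000789 and 0.104% ± 0.279, with a log2 change of 8.44 (SE 2.68) that missed the threshold (edgeR adjusted p = 0.0716; DESeq2 adjusted p = 0.00967). Without PAE female 27 the PAE female mean was 0.0115%. Leaving out PAE female 12, 13, 15 or 26, or PAE male 16, 18 or 19, brought the female adjusted p under the threshold, to 0.0404 at the lowest and 0.0489 at the highest. The difference between the sexes in the PAE effect was 3.65 (SE 2.61, adjusted p = 0.54).

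All 7 libraries with Coprobacillus at 0.0841% or more were among the 9 with the fewest observed variants; control females 3 and 10, also among the 9, were not, at 0.00169% and 0.00154%. Leaving out the 9 libraries took out every PAE male above the control males, so the call could not be kept. The change in males was then 0.47 (adjusted p = 0.89). Against the controls numbered 1 to 10 alone, 5 of them males, it was 10.35 (adjusted p = 0.14). Variant 1 passed in males against the controls numbered 30 to 37 alone. With limma and the runs of library numbers as a random block the genus change was 7.39 (adjusted p = 0.27) with the PAE libraries as 1 run. It was 6.66 (adjusted p = 0.59) with them divided after 19.

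Variant 1 of Coprobacillus gave nearly the same values as the genus, with a change of 10.99 in males (SE 2.43, edgeR adjusted p = 0.00326). In females it was 7.11 (SE 2.60, adjusted p = 0.0689), and without PAE male 16, 17, 18 or 25 or PAE female 15, 26 or 29 the adjusted p was 0.0450 to 0.0495. The other 7 Coprobacillus variants held 71 reads in all, each in 1 library.

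The [Clostridium] innocuum group, placed in the Erysipelotrichaceae here, held 14195 reads, 99.8% of them in variant 1. It stood at 0.1% or more in exactly the 9 libraries with the fewest observed variants. Control females 3 and 10 held 0.939% and 0.886%, PAE males 20 to 24 held 0.198%, 0.161%, 0.360%, 0.272% and 0.189%, and PAE females 27 and 28 held 0.713% and 0.220%. The other 28 libraries held at most 0.00450%. Unlike Coprobacillus, the innocuum group was therefore abundant in control as well as PAE libraries, but in control females and not in control males.

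**Figure D4:**
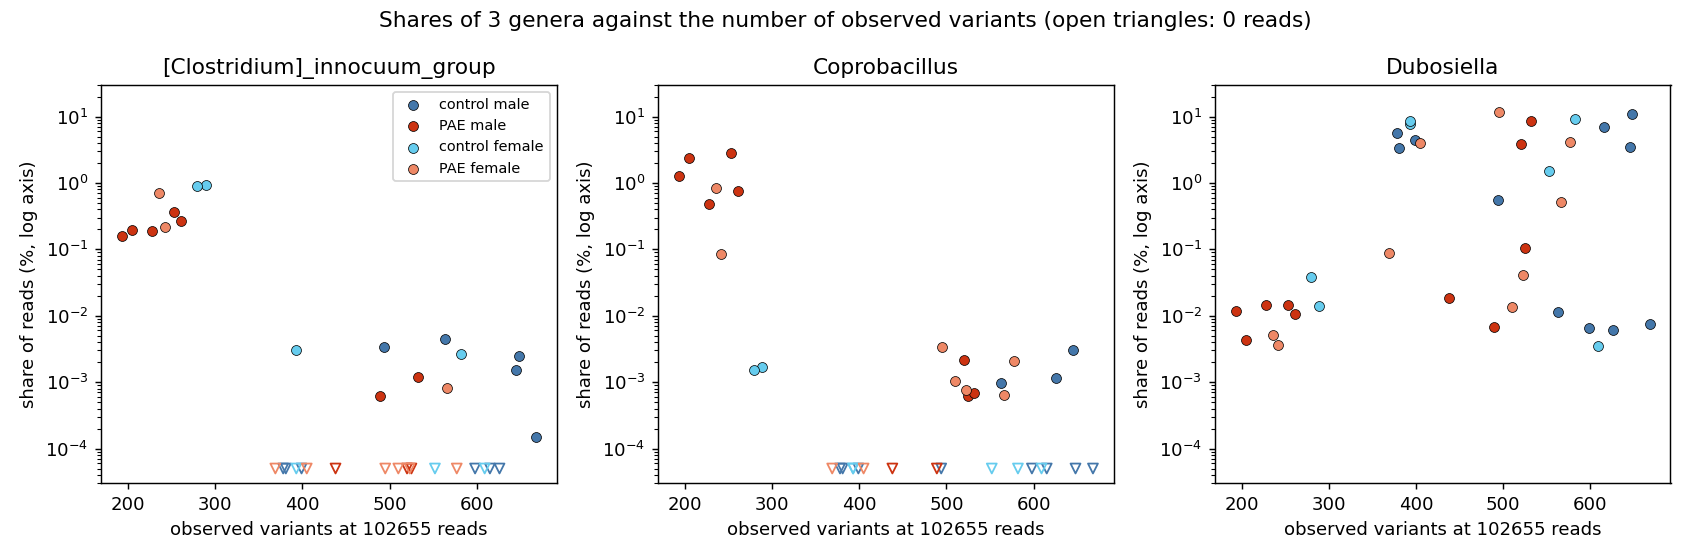
Share of reads (%, log axis) of the innocuum group, Coprobacillus and Dubosiella against the number of observed variants at 102655 reads, 1 point per library coloured by group, with 0 reads as open triangles. The 9 libraries with 193 to 289 variants held all innocuum shares above 0.00450%, the 7 highest Coprobacillus shares, and Dubosiella at no more than 0.0390%.

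In males the lowest, median and highest shares of the innocuum group were 0%, 0% and 0.00450% in controls and 0%, 0.0813% and 0.360% after PAE. The 5 PAE males numbered 20 to 24 lay above every control male, and the others did not. The means were 0.00110% ± 0.00165 and 0.118% ± 0.135, 107.9-fold higher after PAE, with a log2 change of 7.94 (SE 2.39, edgeR adjusted p = 0.0183). The control mean rests on shares of at most 0.00450%, with a median of 0%, so the fold is imprecise. Without control male 35 the change was 6.69 (adjusted p = 0.0593). Leaving out the 9 libraries took out every PAE male above the control males, so the call could not be kept. The change was then -1.04 (adjusted p = 0.81). Against the controls numbered 1 to 10 alone, 5 of them males, the change was 5.93 (adjusted p = 0.39). Variant 1 passed in males against the controls numbered 30 to 37 alone. For the genus, limma on centred log-ratios gave 5.41 (adjusted p = 0.0556). In females the shares were 0%, 0.00269% and 0.939% in controls and 0%, 0% and 0.713% after PAE, with both groups spanning the same range. The female log2 change was -0.81 (SE 2.06, 95% interval -4.94 to 3.32, adjusted p = 0.96), from means of 0.262% ± 0.445 and 0.104% ± 0.240. Without PAE female 27 the latter mean was 0.0275%, and without control female 3 or 10 the former was 0.149% or 0.157%.

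The PAE change of the innocuum group was 8.75 log2 units larger in males than in females (SE 3.07), which did not pass after adjustment (edgeR adjusted p = 0.10; DESeq2 9.14, adjusted p = 0.0403). Among controls the genus was lower in males than in females, by a log2 change of -8.68 (SE 2.50, edgeR adjusted p = 0.0285), the only 1 of the 7 genera to pass between the sexes in controls, where 4.46% of all genera passed in either direction and 2.68% as lower in males (1.79% as higher). Control females 3 and 10 held nearly all of its reads among controls. Leaving out control male 1, 2, 5, 6, 7, 31, 35, 36 or 37 or control female 3, 8 or 10 lifted the adjusted p to between 0.05001 and 0.115, with changes of -8.57 to -7.02. Among PAE mice the male to female difference was 0.06 (SE 1.89), and none of the 7 genera passed (0% of all genera; 1 of the 7 and 9 of the 112 had an unadjusted p under 0.05, and DESeq2 passed 1, Erysipelatoclostridium).

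Variant 1 of the innocuum group passed narrowly in males, with a change of 7.05 (SE 2.40, edgeR adjusted p = 0.0434). The call was lost, at adjusted p of 0.0507 to 0.0793, when control male 1, 2, 6, 7, 31, 32, 33, 35, 36 or 37, PAE male 20 to 24, control female 3 or 10, or PAE female 28 was left out. In females the change was -2.05 (SE 2.19, adjusted p = 0.93).

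Turicibacter held 51830 reads, and nearly all of them came from 2 PAE libraries. PAE male 25 held 6.49% (48117 reads) and PAE female 29 held 0.571% (3556 reads). The other 35 libraries held at most 24 reads and 0.00985%. In control males the lowest, median and highest shares were 0%, 0% and 0.00457%, in PAE males 0%, 0.00221% and 6.49%, in control females 0%, 0.00101% and 0.00493%, and in PAE females 0%, 0.000951% and 0.571%. Apart from those 2 libraries the ranges of the 4 groups overlapped.

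The mean share of Turicibacter in males was 0.000508% ± 0.00138 in controls and 0.653% ± 2.05 after PAE, with a log2 change of 10.45 (SE 2.44, edgeR adjusted p = 0.00191). Without PAE male 25 the PAE mean was 0.00354% and the change was 3.43 (adjusted p = 0.115), so the call rests on that library. Against the controls numbered 1 to 10 alone, 5 of them males, the change was 9.21 (adjusted p = 0.15). Variant 1 passed in males against the controls numbered 30 to 37 alone. In females the means were 0.00154% ± 0.00182 and 0.0646% ± 0.190, with a change of 5.51 (SE 2.43, adjusted p = 0.37). Without PAE female 29 the PAE female mean was 0.00131%, the change was -0.14, and the difference in the PAE effect between the sexes, 4.94 (SE 2.65, adjusted p = 0.53), became 10.59 (adjusted p = 0.0378).

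The same leading variants made up Turicibacter in both rich libraries. Variant 1 held 90.0% of the genus in PAE male 25 and 93.1% in PAE female 29, and variant 2 held 5.17% and 6.95%. Variants 3, 4 and 5 (828, 777 and 683 reads) were seen only in PAE male 25. Both libraries also held Bifidobacterium, at 2.32% and 0.113%, against a median of 0.00248% in the other 35, of which 6 held 0.1% or more; its part in the Turicibacter values was not tested. Both were also among the 17 libraries with abundant Dubosiella.

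Turicibacter variant 1 passed in males, with a change of 12.43 (SE 2.70, edgeR adjusted p = 0.00326), which became 2.21 (adjusted p = 0.37) without PAE male 25. In females it was 6.87 (SE 2.71, adjusted p = 0.10). Leaving out PAE male 25 also moved this female value past the threshold (6.98, adjusted p = 0.0332) and the male to female difference in PAE mice to -6.94 (adjusted p = 0.0409).

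Erysipelatoclostridium held 4216 reads. In males the lowest, median and highest shares were 0%, 0% and 0.101% in controls and 0%, 0.0517% and 0.633% after PAE, and 4 of the 10 PAE males lay above every control male. The means were 0.0182% ± 0.0321 and 0.158% ± 0.213, 8.70-fold higher after PAE, with a log2 change of 3.83 (SE 1.62, 95% interval 0.58 to 7.07) that did not pass after adjustment (edgeR adjusted p = 0.13; limma on centred log-ratios 5.72, adjusted p = 0.0184). In females the means were 0.00739% ± 0.00860 and 0.00289% ± 0.00266, with a change of -1.51 (SE 1.70, adjusted p = 0.96). Among PAE mice the genus was at a log2 difference of 6.32 between males and females (SE 1.99, edgeR adjusted p = 0.13; DESeq2 5.56, adjusted p = 0.0223).

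Variants with the 2 main species labels of the genus did not share libraries, although variants with the same label did. Those labelled Erysipelatoclostridium_ramosum (2771 reads in variants 1 and 3) were seen in 5 libraries, PAE males 20 to 24. Those labelled unidentified (1427 reads, variants 2 and 4 mainly) were seen in 17 other libraries, both control and PAE, and 0 libraries held reads of both. The highest shares of variant 1 were 0.542% in PAE male 23 and 0.350% in PAE male 24, and the highest of variant 2 were 0.170% in PAE male 18 and 0.0834% in control male 1. No library numbered 30 to 37 held any Erysipelatoclostridium read. Variant 2, the only one with enough libraries to be tested, had a log2 change of 0.70 in males (SE 1.73, adjusted p = 0.90) and -1.36 in females (SE 1.98, adjusted p = 0.99).

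Over the family Erysipelatoclostridiaceae the share in males was 0.0203% ± 0.0319 in controls and 0.937% ± 1.09 after PAE, 46.2-fold higher, with a log2 change of 5.94 (SE 1.41, edgeR adjusted p = 0.00292). The lowest, median and highest shares were 0%, 0.00494% and 0.104% in control males and 0.00251%, 0.568% and 3.03% in PAE males. In all, 6 of the 10 PAE males lay above every control male. In females the means were 0.00872% ± 0.00744 and 0.108% ± 0.278, with a change of 3.998 (SE 1.58, adjusted p = 0.29), and without PAE female 27 the PAE female mean was 0.0156%. Without PAE female 27 the family also passed between PAE males and PAE females (5.84, adjusted p = 0.0186). Without the 9 libraries, and so without PAE males 20 to 24, the change in males was 1.73 and no longer passed. Neither family passed between the sexes in controls, where 1.67% of families did, as higher in males. The log2 change of the family Erysipelotrichaceae was -0.47 in males (SE 0.97, adjusted p = 0.82) and -0.92 in females (SE 1.11, adjusted p = 0.92); without PAE male 25 the male value was -2.69 (adjusted p = 0.0383).

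Variants of Erysipelotrichaceae with no genus name (12 variants, 15841 reads) were seen in 31 libraries. They were summed as 1 rank. In control males the lowest, median and highest shares were 0.00512%, 0.0555% and 1.13%, and in PAE males 0%, 0.00499% and 0.205%. Of the 10 PAE males, 9 lay below the control median. The means were 0.219% ± 0.357 and 0.0309% ± 0.0633, 7.09-fold higher in controls, with a log2 change of -3.00 (SE 1.29, 95% interval -5.59 to -0.42, adjusted p = 0.13); without PAE male 17 the change was -4.64 (adjusted p = 0.0164), and DESeq2 gave -2.78 (adjusted p = 0.0484). With limma on centred log-ratios the change was -3.97 (SE 1.13, adjusted p = 0.0201), which did not pass with the runs of library numbers as a random block (-3.91, adjusted p = 0.27, with the PAE libraries as 1 run). In females the means were 0.0378% ± 0.0240 and 0.0392% ± 0.0456, with a change of -0.47 (SE 1.36, adjusted p = 0.96). The 6 libraries with no reads of these variants were all among the 9 with the fewest observed variants.

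Single unnamed variants differed in where they were seen. Variant 1 (5181 reads) was in 29 libraries of all groups, and variant 3 (2836 reads) in 20. Variant 2 (4035 reads) was in 4 libraries and variant 4 (1824 reads) in 2, all of them controls numbered 30 to 37, as were variants 5, 7, 8 and 9. Control male 36, with the highest share (1.13%), carried variant 2 at 0.558% and variant 4 at 0.258%. Control male 2 (0.672%) carried variant 1 at 0.609% and neither of those. Variants 1 and 3, the 2 that were tested, had log2 changes of -3.62 (SE 1.51, adjusted p = 0.13) and -0.59 (SE 1.60, adjusted p = 0.91) in males, and of -0.90 (SE 1.54, adjusted p = 0.99) and -2.97 (SE 1.91, adjusted p = 0.57) in females. For variant 1 in males limma on centred log-ratios gave -3.70 (adjusted p = 0.0231), and -3.68 (adjusted p = 0.82) with the block.

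Faecalibaculum, a relative of Dubosiella, held 25165 reads in 9 variants, of which 25089 were in control female 34, at 1.38% of that library. Its next highest library had 39 reads. It was listed in 13 libraries in all and was too sparse to be tested. In control female 34 it made up 94.1% of the order, while Dubosiella had 63 reads there. Variant 1 (no species label) held 84.5% of the genus and variant 2, labelled Faecalibaculum_rodentium, held 15.4%.

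The remaining names were rare. The genus label Erysipelatoclostridiaceae (2 variants, 242 reads) was tested, with a log2 change of -0.45 in males (SE 1.38, adjusted p = 0.85) and -0.88 in females (SE 1.58, adjusted p = 0.96). The genus label Erysipelotrichaceae (1 variant, 97 reads) had reads only in control males 35, 36 and 37 and control female 34. It had 0 reads in all 19 PAE libraries and also in every other control, all those numbered 1 to 10 among them. The control males held 57 of these reads and control female 34 held the other 40. Unclassified Erysipelatoclostridiaceae had 8 reads in 2 libraries, and Holdemanella had 1 read in control female 10. For the genera of the order with 0 reads in a library, that depth allows a share of up to 0.000165% in the deepest such library and 0.00292% in the shallowest, from counting error alone.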

How the data were processed

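Per the labels, V3–V4 amplicons of stool DNA from 37 mice were sequenced in paired-end mode. Bowtie2, cutadapt and GRCm39, a mouse build, appear in the submitters' processing notes with no role stated. What denoised and classified the reads, and against which taxonomy, was not given in the sources used here. A deposited table holds counts of reads per sequence variant, not normalized, and another deposited table gives the taxonomy. The labels of control males 5 and 6 exchange their names, so the number tells these 2 libraries apart only as the count table names them.

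Plastid, mitochondrial, eukaryotic and unassigned variants were left out (6085 of 6100 variants kept), and shares are percentages of the kept reads. Variants without a genus name were summed under their lowest named rank. Counts were tested with edgeR 4.0.16 in R 4.3.3, quasi-likelihood with TMM scaling and 1 mean per group of exposure and sex, on taxa that had 5 or more reads in 7 or more libraries, adjusted over all taxa of a rank. The script was tested on simulated data. Alternatives used other scalings and filters, limma 3.58.1 on centred log-ratios, DESeq2 1.42.0, runs of library numbers (PAE divided after 19) alone or as a random block, and each library left out. Leaving out the 9 libraries with the fewest observed variants, setting counts of 25 or fewer to 0, keeping rows labelled uncultured apart and taking all PAE libraries as 1 run were chosen after seeing the data. No pair of libraries was near-identical.

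Genera were named where their mean share reached 0.01% in a group or where they passed a test, with their passing or leading variants, and the others were named together. Members and lists were chosen with earlier results of these data known. Intervals and floors cover counting error only.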

Additional observations from a re-analysis of the deposited data

Results flagged for a closer look

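A library is listed here when, in a group of 7 to 10, its share lay so far above the next that Dixon's test at the 95% level set it apart. Chance sets apart about 1 in 20 groups of normally distributed values. The shares here are near 0 in most libraries with a few high ones, and several of the entries below count the same reads as variant, genus and family, so the 17 of 39 groups with such a library are given as a description only. Control males, a group of 11, were not examined. No explanation was tested.

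Among PAE males, library 25 stood apart for Dubosiella, with 8.51% of reads, for Turicibacter with 6.49%, for Turicibacter variant 1 with 5.85%, and for the family Erysipelotrichaceae with 15.02%. PAE male 17 stood apart for unclassified Erysipelotrichaceae, with 0.205%. Among PAE females, library 14 stood apart for Dubosiella with 11.8% (next highest 4.18%) and for the family Erysipelotrichaceae with 11.8%.

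PAE female 27 stood apart for Coprobacillus with 0.845%, for its variant 1 with 0.840%, for the family Erysipelatoclostridiaceae with 0.845%, for the innocuum group with 0.713% and for its variant 1 with 0.712%. PAE female 29 stood apart for Turicibacter with 0.571%, for Turicibacter variant 1 with 0.531% and for Dubosiella variant 1 with 0.135%.

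Among control females, library 34 stood apart for Faecalibaculum with 1.38% and library 30 for Dubosiella variant 1 with 8.47%.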

How the results depend on the processing

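No paired analysis was possible because every library has its own number, so the groups share none. The causes of the changes below were not tested.

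The number of genera that passed in males, 3, was 0 with the stricter filter (10 reads in 18 libraries, where Coprobacillus, Turicibacter and the innocuum group were no longer tested), with controls 1 to 10 alone, with PAE libraries 11 to 19 alone and with the runs as a random block (PAE libraries divided after 19 or as 1 run), and 1, Turicibacter, without the 9 libraries. The division of the PAE libraries after 19 is in no label and was chosen with earlier results known. Leaving out the 9 libraries took out every PAE male above the control males for Coprobacillus and the innocuum group, so those calls could not be kept. It also took out control females 3 and 10, which held nearly all innocuum reads among controls. The block with the PAE libraries as 1 run was added after seeing the data. Each run holds 1 exposure, so few runs stand behind the PAE difference once runs are a block. With the divided block the limma SE of Coprobacillus in males went from 1.93 to 3.06. Not passing with a block therefore does not decide whether a taxon differed with PAE. A count of taxa that passed does not say which did, and some taxa changed: with DESeq2 the 3 that passed in males held unclassified Erysipelotrichaceae and not Turicibacter, and with limma the 4 that passed were 2 of the 3 (not the innocuum group) with Erysipelatoclostridium and unclassified Erysipelotrichaceae. In females, 0 became 1 with DESeq2, with the looser filter (1 read in 2 libraries), with PAE libraries 11 to 19 or 20 to 29 alone and with rows labelled uncultured kept apart (Coprobacillus, but Faecalibaculum with the looser filter and the innocuum group with 11 to 19). For the sex difference in the PAE effect, 0 became 1 with DESeq2 and the looser filter, and for PAE males against PAE females 0 became 1 with DESeq2. For control males against control females, 1 became 0 with limma, the stricter filter, either run of controls alone, either block or without the 9 libraries, and 2 with the looser filter. The single genus that passed with the looser filter in females and in the sex difference was Faecalibaculum, whose reads lie in control female 34.

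In males 4 variants passed, and with limma 2 did, of which 1 was among the 4 (Coprobacillus variant 1) and the other was unclassified Erysipelotrichaceae variant 1. With counts of 25 or fewer set to 0, 2 of the 4 passed (variant 1 of Coprobacillus and of the innocuum group), with the stricter filter 1 (Dubosiella variant 1) and without the 9 libraries 1 (Turicibacter variant 1). The looser filter passed 16 and controls 30 to 37 alone 8, the 4 among them in both, and 0 passed with controls 1 to 10 alone, PAE libraries 11 to 19 alone or either block. In females, Dubosiella variant 1 passed, and 2 variants did with TMMwsp scaling, library totals or DESeq2 (Coprobacillus variant 1 being the other), 2 others with counts of 25 or fewer set to 0 (Coprobacillus variant 1 and unclassified Erysipelotrichaceae variant 3) and 13 with the looser filter. None passed with limma, the stricter filter, controls 1 to 10 alone, PAE libraries 11 to 19 alone, either block or without the 9 libraries (0 each), and with PAE libraries 20 to 29 alone the 1 that passed was Coprobacillus variant 1.

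The log2 change of the family Erysipelotrichaceae in males, -0.47, was 0.13 with PAE libraries 20 to 29 alone and 0.20 without the 9 libraries. That of Erysipelatoclostridiaceae in males, 5.94, no longer passed at 4.68 (controls 1 to 10 alone), 2.15 (PAE libraries 11 to 19 alone), 5.22 (block), 5.62 (block with PAE as 1 run), 1.73 (without the 9 libraries) and 6.05 (counts of 25 or fewer set to 0). In females, 3.998, it passed at 3.76 (DESeq2), 3.91 (looser filter) and 5.68 (PAE libraries 20 to 29 alone), and was -0.94 with PAE libraries 11 to 19 alone and -0.81 without the 9 libraries.

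Other directions turned as follows. Only 2 control females, 30 and 34, are numbered 30 to 37, so female values with controls 30 to 37 alone rest on these 2. Neither held an Erysipelatoclostridium read, and control females 3 and 10, with the high control shares of the innocuum group, are not among them. The genus label Erysipelatoclostridiaceae in males was 0.53 with limma, 1.01 with PAE libraries 11 to 19 alone, 0.84 with the block (0.64 with PAE as 1 run) and 0.34 without the 9 libraries. Erysipelatoclostridium in females was 6.67 with controls 30 to 37 alone and 0.91 with the block (0.47 with PAE as 1 run). Turicibacter in females was -0.60 with PAE libraries 11 to 19 alone. The innocuum group in males was -2.08 with PAE libraries 11 to 19 alone and -1.04 without the 9 libraries, in females 12.36 with controls 30 to 37 alone and 0.31 with PAE libraries 20 to 29 alone (its variant 1 was 11.45 and 0.06), and between the sexes in controls 1.01 with controls 30 to 37 alone. Unclassified Erysipelotrichaceae in females was 0.04 with library totals, 0.31 with controls 1 to 10 alone and 0.09 with PAE libraries 11 to 19 alone. Dubosiella variant 1 in males was 0.26 with controls 1 to 10 alone.

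With each of the 37 libraries left out in turn, the genera that passed numbered 2 to 4 in males, 0 to 1 in females, 0 to 1 for the sex difference and 0 to 1 between the sexes in controls, and the variants 3 to 4 in males and 0 to 3 in females. The change of Erysipelotrichaceae ran from -2.69 to -0.30 in males, and that of Erysipelatoclostridiaceae from 5.20 to 6.98 in males and 1.45 to 4.69 in females. Values that crossed 0 were the genus label Erysipelatoclostridiaceae in males (-1.56 to 0.38) and, in females, Turicibacter (-0.14 to 5.92), the innocuum group (-2.74 to 0.21), unclassified Erysipelotrichaceae (-0.89 to 0.08) and Dubosiella variant 1 (-8.97 to 0.23).

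The scaling moved the median log2 change of all genera in males from -0.28 to -0.16 with TMMwsp and 0.23 with limma, and in females from -0.13 to 0.09 with TMMwsp and 0.08 with library totals. Over all genera in males, 11 were higher and 2 lower with edgeR, 11 and 6 with DESeq2, and 15 and 15 with limma. DESeq2 gave no adjusted p for Turicibacter. Depth limits the 128 variants under 100 reads, which were not tested.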
